A study of Mus musculus with 22 samples.

Results

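The collagen genes of isolated mouse islets were examined across 4 groups of male mice. The 44 rows of the expression table whose symbol is a collagen alpha chain (Col, a type number, a, a chain number) were taken, of 57010 rows in all. Each library came from the islets of 1 mouse at 5.5 weeks of age, and polyadenylated RNA was sequenced. WT mice carried wild-type MafA, and Het mice were heterozygous for MafA S64F, a protein change in the beta-cell transcription factor MafA. The C57 background gave 5 WT and 6 Het animals, and a background labelled Mixed gave 5 WT and 6 Het animals. The strains of the latter are not given in the sources used here. Islet preparations hold blood vessels, stromal cells and some exocrine tissue beside endocrine cells.

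Collagens are matrix proteins of 3 alpha chains wound into a triple helix. Fibrillar types such as type I and type III are laid down mainly by fibroblasts and related stromal cells, and type VI forms beaded filaments beside them. Type IV forms the network of basement membranes, which in islets lies around the capillaries. Other members associate with fibrils (FACIT collagens), span the cell membrane, or carry endostatin-like domains (multiplexins).

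Of the 44 genes, 29 reached 1 TPM in at least 5 samples and were tested. TPM is transcript abundance scaled for transcript length and to a fixed total of 1000000 per library. The other 15 were Col2a1, Col4a4, Col4a6, Col6a4, Col6a5, Col9a1, Col10a1, Col11a1, Col12a1, Col17a1, Col19a1, Col22a1, Col23a1, Col24a1 and Col25a1. For 13 of these no sample reached 1 TPM, and the exceptions were Col4a4 and Col6a5. Among the tested genes, Col8a1 passed only through the Mixed Het group, Col8a2 only through the C57 Het group, and Col26a1 only with the Het animals of both backgrounds. A higher level in Het was built into the selection of these 3 genes. Levels in TPM can be set side by side between genes because TPM is per length. The 4 genes with the highest mean TPM over all samples were Col4a1 (133 TPM), Col4a2 (98.8 TPM), Col15a1 (33.2 TPM) and Col6a6 (29.8 TPM).

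Mafa mRNA was at 362 to 571 TPM in C57 WT and 93.8 to 152 TPM in C57 Het islets, and at 440 to 776 TPM in Mixed WT and 95.2 to 199 TPM in Mixed Het islets. TPM per gene does not show the S64F change, so these values do not verify the genotype labels. Beta-cell marker genes summed to at least 250700 TPM in every sample. Over all 16756 genes tested, the median log2 difference between Het and WT was 0.08 in C57 and 0.10 in Mixed, and median-of-ratios scaling moved these medians to -0.01 in each. The genes called were then 3293 higher and 3300 lower in C57 in place of 4422 and 1940, and 3663 higher and 3751 lower in Mixed in place of 5137 and 2258. The collagen counts in Mixed were 16 higher and 3 lower under either scaling. C57 WT 5 had the highest summed fibroblast, stellate and pericyte markers of all samples (311 TPM), and Mixed Het 5 was close to it (304 TPM).

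In Mixed islets, 19 of the 29 tested collagen genes differed between Het and WT, 16 higher and 3 lower in Het (limma, Benjamini-Hochberg adjusted p under 0.05). Among all genes the test called 44.1%, with 30.7% higher and 13.5% lower. In C57 islets 8 of the 29 differed, 4 higher and 4 lower, where the test called 38.0% of all genes, 26.4% higher and 11.6% lower. Under median-of-ratios scaling the C57 counts became 4 higher and 7 lower. The median log2 difference over the tested collagen genes was 0.70 in Mixed and -0.04 in C57. Het and WT values did not overlap for 12 of the 29 in Mixed, against 23.6% of all genes, and for 5 in C57, against 21.0%. The call was shared by 7 genes on both backgrounds, in the same direction each time, and 12 were called higher in Mixed while not passing in C57. Col8a1, Col8a2 and Col26a1 are among the 16 higher in Mixed, and Col8a2 and Col26a1 among the 4 higher in C57. All 3 are also among the 12 without overlap in Mixed, and Col8a2 is among the 5 in C57, so selection had a part in these counts too. The 2 genotype contrasts use different animals. Bulk RNA cannot tell more cells of a type from more RNA per cell, and this holds for every difference below.

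**Figure D1:**
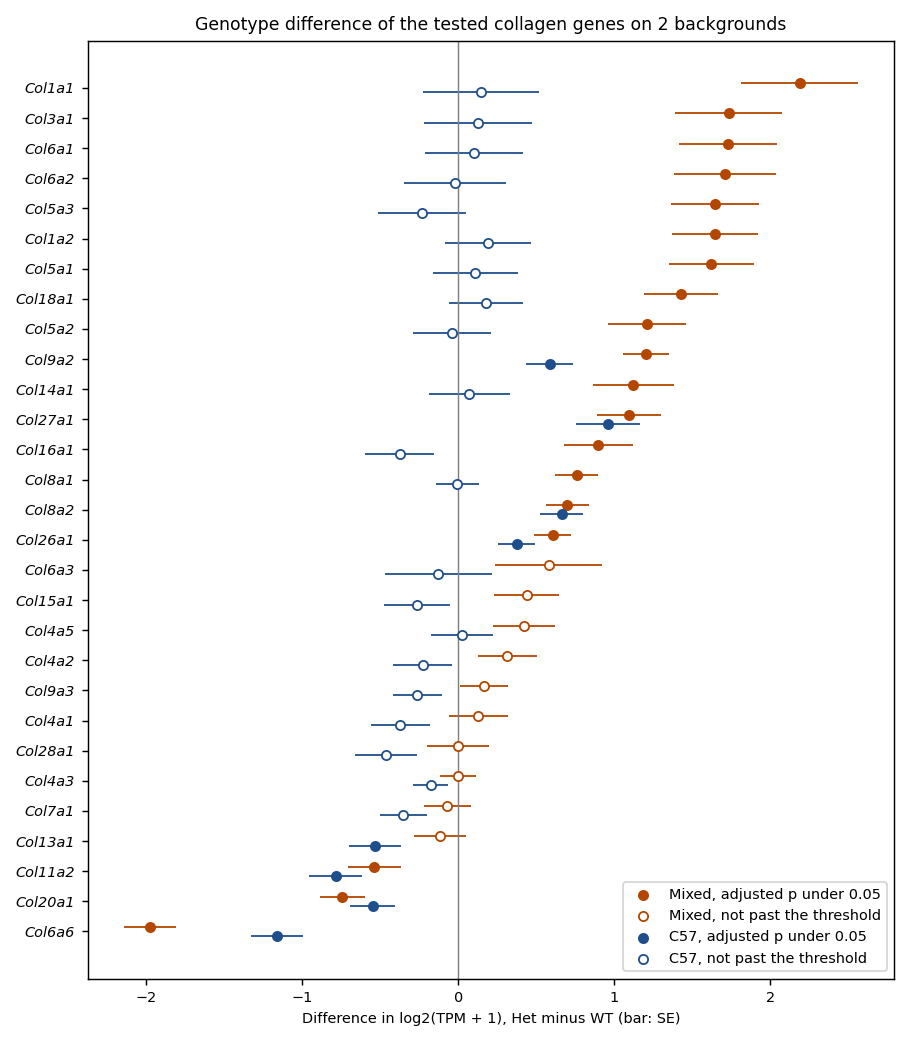
Difference in log2(TPM + 1) between Het and WT (x axis, Het minus WT, bars show SE) for the 29 tested collagen genes, on the Mixed (orange) and C57 (blue) backgrounds. Filled points passed an adjusted p of 0.05; most genes in the upper part passed in Mixed and not in C57, Col27a1, Col9a2, Col8a2 and Col26a1 are higher on both backgrounds, and Col6a6, Col20a1 and Col11a2 are lower on both.

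The bases before the annotated start of 5 of these genes are shown because the genes fall into different response patterns. Col3a1, Col1a2 and Col6a1 were higher in Mixed Het, Col27a1 was higher in Het on both backgrounds, and Col6a6 was lower on both. The sequences are the 250 bases upstream of the RefSeq start, 5′ to 3′ on the gene's strand, from the GRCm38.p6 build, which is not the mm39 build named in the submitters' processing notes. Capitals mark matches to 4 short motifs, each searched on both strands with overlaps kept. The TATA box was searched as TATAAA. The CCAAT box was searched by its own letters. The GC box, which Sp1-type factors recognise, was searched as GGGCGG. The half-site of the MAF recognition element was searched as TGCTGA.
Col3a1 (chr1:45311288-45311537, plus strand): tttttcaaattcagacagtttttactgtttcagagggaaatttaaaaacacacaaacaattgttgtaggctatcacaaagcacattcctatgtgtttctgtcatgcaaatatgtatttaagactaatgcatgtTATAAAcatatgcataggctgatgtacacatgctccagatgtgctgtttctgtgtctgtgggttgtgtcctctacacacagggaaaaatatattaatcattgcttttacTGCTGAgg
Col1a2 (chr6:4505368-4505617, plus strand): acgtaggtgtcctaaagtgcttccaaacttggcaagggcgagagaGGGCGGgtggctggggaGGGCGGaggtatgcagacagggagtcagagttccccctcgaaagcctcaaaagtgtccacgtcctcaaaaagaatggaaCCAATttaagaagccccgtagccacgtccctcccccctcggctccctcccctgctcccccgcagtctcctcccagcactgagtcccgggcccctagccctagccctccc
Col6a1 (chr10:76726045-76726294, minus strand): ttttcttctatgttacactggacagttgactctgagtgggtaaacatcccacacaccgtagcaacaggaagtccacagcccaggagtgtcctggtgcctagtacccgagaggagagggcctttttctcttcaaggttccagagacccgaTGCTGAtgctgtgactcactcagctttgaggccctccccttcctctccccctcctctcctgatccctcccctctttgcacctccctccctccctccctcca
Col27a1 (chr4:63215162-63215411, plus strand): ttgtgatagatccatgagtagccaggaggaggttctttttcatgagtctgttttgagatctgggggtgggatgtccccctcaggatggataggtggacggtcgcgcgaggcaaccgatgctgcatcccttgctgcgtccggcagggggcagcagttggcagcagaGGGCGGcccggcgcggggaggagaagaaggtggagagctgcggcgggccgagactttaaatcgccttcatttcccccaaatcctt
Col6a6 (chr9:105828086-105828335, minus strand): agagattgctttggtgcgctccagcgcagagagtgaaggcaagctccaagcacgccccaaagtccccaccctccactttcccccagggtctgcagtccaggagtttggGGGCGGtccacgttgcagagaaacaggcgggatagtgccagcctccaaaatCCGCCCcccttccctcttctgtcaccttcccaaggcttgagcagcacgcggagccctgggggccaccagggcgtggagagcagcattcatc

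These 5 windows differed in base composition and in the letters found. The G and C content was 35.2% for Col3a1, 62.0% for Col1a2, 56.0% for Col6a1, 59.6% for Col27a1 and 62.4% for Col6a6. The Col3a1 window held a TATA box at -117 and a MAF half-site at -8, and the Col6a1 window held a MAF half-site at -101, counting back from the start. The Col1a2 window held GC boxes at -205 and -188 and a CCAAT box at -109. Col27a1 had 1 GC box, at -85, and Col6a6 had 2, at -142 and -91. The RefSeq promoter table held 35 of the 44 collagen genes, and Col1a1 was not among them. These 35 genes had 38 windows. A GC box was found in 22 of the 38 windows (21 of the 35 genes), and in 32.7% of all 32851 promoter windows of this length. The CCAAT box was found in 13 of the 38 (33.8% of all windows), the MAF half-site in 6 (16.1%) and the TATA box in 5 (12.4%). A match describes the letters and is not a binding site.

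The largest differences in Mixed islets were in fibrillar and type VI chains, and among them Col6a6 was lower in Het (-1.97). Of 11 fibrillar chain genes, 8 were tested, and 7 were higher and 1 lower in Mixed Het. Of 6 type VI chain genes, 4 were tested, and 2 were higher, 1 lower and 1 not called. Over all genes 30.7% were called higher and 13.5% lower. Col1a1, the main chain of type I collagen, was at 3.02, 9.83, 8.04, 10.2 and 8.08 TPM in the Mixed WT animals. In Mixed Het it ran from 15.2 TPM through a median of 35.8 to 94.8 TPM, so that the lowest Het animal lay above the highest WT animal. In C57 the WT values were 9.02, 6.82, 4.81, 8.001 and 19.9 TPM, and the Het values ran from 6.76 TPM through 10.7 to 13.7 TPM, inside the WT range. The log2 difference was 2.19 (SE 0.37, limma adjusted p = 7.74e-05) in Mixed and 0.15 (SE 0.37, adjusted p = 0.786) in C57.

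Col1a2, the other chain of type I collagen, had group means of 7.13 ± 1.695 TPM (SD, n = 5) in Mixed WT and 27.1 ± 15.9 TPM (n = 6) in Mixed Het, a log2 difference of 1.64 (limma adjusted p = 6.43e-05). Col3a1 encodes the chain of type III collagen, which co-assembles with type I. Its Mixed WT values were 7.76, 20.2, 13.1, 13.9 and 13.9 TPM, and its Mixed Het values ran from 16.5 TPM through a median of 47.0 to 134 TPM. Here the groups overlapped, because the lowest Het animal lay below the highest WT animal. The log2 difference in Mixed was 1.73 (SE 0.34, adjusted p = 0.000375), and in C57 it was 0.13 (adjusted p = 0.805), with 14.1, 12.7, 9.79, 12.0 and 24.1 TPM in WT and 11.6 to 20.1 TPM in Het.

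Type V chains, which nucleate and limit the width of type I fibrils, were also highest in Mixed Het. Col5a3 was at 1.03, 1.79, 1.22, 1.66 and 1.35 TPM in Mixed WT, and at 2.31 TPM (lowest), 7.32 TPM (median) and 14.6 TPM (highest) in Mixed Het, with no overlap. In C57 WT it was at 1.49, 1.23, 1.42, 2.27 and 4.31 TPM, and in C57 Het it ran from 1.13 TPM through 1.41 to 2.88 TPM. The log2 difference was 1.65 (SE 0.28, limma adjusted p = 8.23e-05) in Mixed and -0.23 (SE 0.28, adjusted p = 0.542) in C57. Col5a1 rose by 1.62 (adjusted p = 5.89e-05) and Col5a2 by 1.21 (adjusted p = 0.000543) in Mixed, and their C57 differences of 0.11 and -0.04 did not pass.

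Type VI collagen is built from a Col6a1 chain, a Col6a2 chain and 1 longer chain, most often that of Col6a3. Col6a1 was at 4.83, 7.43, 6.49, 7.24 and 6.95 TPM in Mixed WT and ran from 10.1 TPM through a median of 20.7 to 79.1 TPM in Mixed Het, with no overlap. In C57 the WT values were 8.51, 6.26, 5.48, 7.10 and 11.4 TPM and the Het values ran from 6.47 TPM through 8.18 to 11.02 TPM. Its log2 difference was 1.73 (SE 0.32, limma adjusted p = 0.000152) in Mixed and 0.10 (adjusted p = 0.826) in C57.

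Col6a2, the neighbour of Col6a1 with no protein-coding gene between them, was at 2.37, 4.20, 4.08, 4.30 and 3.41 TPM in Mixed WT. In Mixed Het it ran from 6.22 TPM through a median of 11.5 to 51.8 TPM, again with no overlap, a log2 difference of 1.71 (SE 0.33, limma adjusted p = 0.000244). In C57 it was at 4.62, 2.95, 2.701, 4.17 and 6.16 TPM in WT and ran from 2.80 TPM through 4.19 to 5.06 TPM in Het, a log2 difference of -0.02 (adjusted p = 0.969).

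Col6a3 did not follow its partner chains. Its difference did not pass, at 0.58 in Mixed (limma adjusted p = 0.178) and -0.13 in C57 (adjusted p = 0.802). In C57 Het its values lay in separate clusters, at 8.44, 8.41, 6.94 and 7.46 TPM in animals 1 to 4 and at 2.20 and 1.75 TPM in animals 5 and 6. Col6a1 was at 11.02 and 8.82 TPM in animals 5 and 6, above the range of 6.47 to 8.59 TPM in animals 1 to 4. The clusters were noticed after the values were seen. The summed acinar markers were 258 to 787 TPM in animals 1 to 4 and 1635 and 1278 TPM in animals 5 and 6, and their part in the Col6a3 values was not tested.

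Further members of other classes were also higher in Mixed Het than in Mixed WT. Col18a1, a multiplexin of basement membranes, rose by 1.43 (limma adjusted p = 5.45e-05), from 2.24 ± 0.58 TPM (SD, n = 5) to 8.27 ± 3.60 TPM (n = 6). The FACIT genes Col14a1 and Col16a1 rose by 1.12 (adjusted p = 0.00154) and 0.90 (adjusted p = 0.00251). Col8a1, a short-chain network collagen, differed by 0.76 (adjusted p = 0.000147), at 1.41 ± 0.38 TPM in Mixed Het, the group through which it passed the filter. None of these 4 genes passed in C57.

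**Figure D2:**
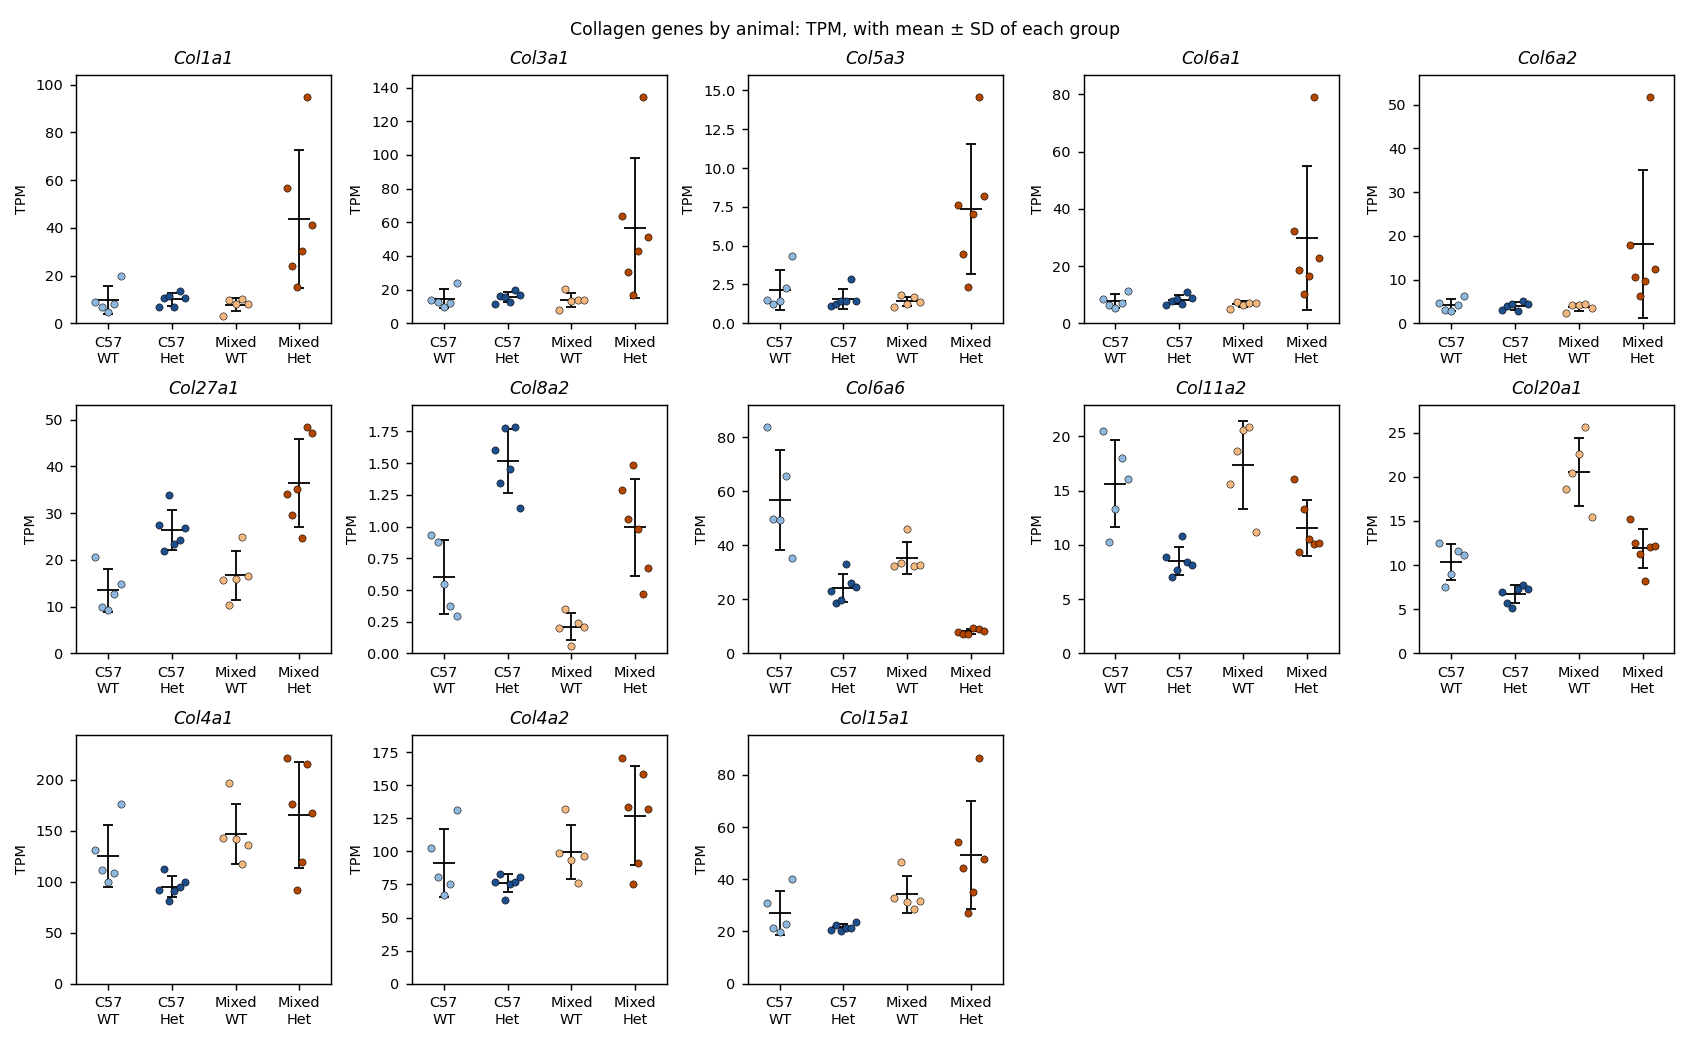
TPM (y axis, from 0) of 13 collagen genes in each of the 22 animals, with the mean and SD of each group. In the upper row the Mixed Het animals spread upward from the other groups; in the middle row the 2 Het groups differ from their own WT group on both backgrounds; in the lower row the type IV genes and Col15a1 overlap between Het and WT.

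The genotype difference depended on background for 12 of the 29 genes, 11 with a positive and 1 with a negative interaction, where the interaction passed for 7.36% of all genes, 4.62% positive and 2.74% negative. The interaction is the Mixed difference minus the C57 difference. The 11 positive genes were Col1a1 (2.04, limma adjusted p = 0.0246), Col5a3 (1.88, adjusted p = 0.00856), Col6a2 (1.73), Col6a1 (1.63), Col3a1 (1.61), Col5a1 (1.51), Col1a2 (1.45), Col16a1 (1.27), Col5a2 (1.25), Col18a1 (1.25) and Col8a1 (0.77). Their adjusted p-values ran up to 0.0474, that of Col3a1. Col8a1 passed the filter only through Mixed Het, so a high value there was built into its place among the 11. The Col3a1 interaction lost its call in 20 of 34 alternatives and that of Col5a2 in 12 of 33. The number of collagen genes past the interaction threshold fell to 5 without C57 WT 5 and to 5 without Mixed WT 1, to 4 without both C57 WT 5 and Mixed Het 5, and to 3 with no filter on low values. Col5a3 passed under each of the 33 alternatives in which it was tested.

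The rise was uneven among the Mixed Het animals. For each of these 11 genes Mixed Het 5 was the highest and Mixed Het 3 the lowest of the 6. Relative to the Mixed WT mean, the median fold over the 11 genes was 9.74 in Mixed Het 5, 4.75 in Mixed Het 1, 3.57 in Mixed Het 6, 2.92 in Mixed Het 4, 2.86 in Mixed Het 2 and 1.57 in Mixed Het 3. Mixed Het 3 and 5 were chosen for leaving out after these values were seen. Leaving out both extremes narrows the spread of the group, so it cannot test whether the calls rest on uneven animals. The fit without them called 16 collagen genes higher and 3 lower in Mixed Het.

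Some genes of other kinds had the same extremes. Dcn (from the list of fibril-associated matrix genes), Pdgfra (fibroblast), Rgs5 (pericyte) and Pecam1 (endothelial) were each highest in Mixed Het 5 and lowest in Mixed Het 3. Others of the marker lists did not. Pdgfrb was highest in Mixed Het 1 (30.35 TPM, against 28.96 TPM in Mixed Het 5), and Acta2 was lowest in Mixed Het 2. Of the endothelial markers, Kdr, Flt1 and Eng were highest in Mixed Het 1, Tek and Emcn in Mixed Het 4 and Tie1 in Mixed Het 6. Dcn, which encodes the fibril-binding proteoglycan decorin, was 12.5-fold the Mixed WT mean in Mixed Het 5 and 0.75-fold in Mixed Het 3. Pdgfra, a receptor that marks fibroblasts, was 20.2-fold in Mixed Het 5 and 1.01-fold in Mixed Het 3, at no more than 2.06 TPM in any Mixed Het animal. Its folds rest on a Mixed WT mean of 0.102 TPM, and it did not pass the filter. Rgs5 ranged from 0.61-fold to 1.59-fold and Pecam1 from 1.09-fold to 1.71-fold. Of the 15 fibroblast, stellate and pericyte markers, 11 were tested; 3 rose and 0 fell in Mixed, where 30.7% of all genes were called higher, while 0 rose and 4 fell in C57, where 11.6% were called lower. Tcf21, among the 3, did not reach the filter in the WT animals alone. The summed level of the list was 162 to 209 TPM in Mixed WT and 118 to 304 TPM in Mixed Het, and 157 to 311 TPM in C57 WT and 125 to 154 TPM in C57 Het, and no marker of the list was at 0 throughout a group. Schwann cell markers were called higher for 4 of 6 genes in Mixed, but 3 of these 4 (Cdh19, Ngfr and Sox10) did not reach the filter in the WT animals alone. In C57, 0 of the 6 Schwann cell markers rose and 0 fell. Macrophage and leukocyte markers rose for 6 of 6 tested in Mixed, while 0 rose and 2 fell in C57. The part of these cells in the collagen differences was not tested.

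**Figure D3:**
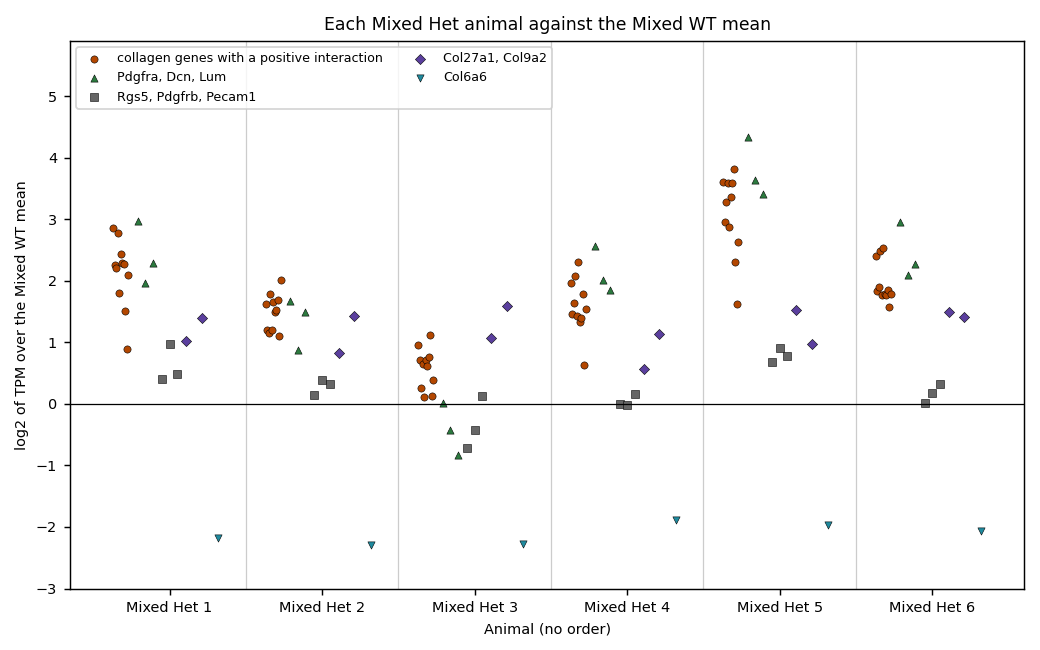
Level of each gene in the 6 Mixed Het animals as log2 of its TPM over the Mixed WT mean (y axis; 0 is the WT mean). The 11 collagen genes with a positive interaction (orange) lie highest in Mixed Het 5 and lowest in Mixed Het 3, as do Pdgfra, Dcn and Lum (green), while Col9a2 and Col6a6 have other extremes and Col27a1 is highest in Mixed Het 5 and lowest in Mixed Het 4.

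Another 7 collagen genes differed between Het and WT on both backgrounds. Relative to the Mixed WT mean, the 6 Mixed Het animals ran from 1.47-fold to 2.89-fold for Col27a1, from 1.95-fold to 3.03-fold for Col9a2 and from 0.20-fold to 0.27-fold for Col6a6. Col27a1, a fibrillar chain best known from cartilage, was higher, at 20.7, 9.91, 9.28, 12.6 and 14.8 TPM in C57 WT and from 21.9 TPM through a median of 25.6 to 33.9 TPM in C57 Het, with no overlap. Mixed WT animals had 15.7, 10.3, 16.02, 24.9 and 16.6 TPM, and Mixed Het animals ran from 24.6 TPM through 34.6 to 48.3 TPM, where 1 WT animal lay above the lowest Het animal. It rose by 0.96 on the log2 scale in C57 (SE 0.20, limma adjusted p = 0.00107) and by 1.09 in Mixed (SE 0.20, adjusted p = 0.000203). The interaction was 0.13 (SE 0.29, adjusted p = 0.803).

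Col9a2, a FACIT chain, rose from 5.35 ± 1.29 TPM (SD, n = 5) to 8.43 ± 1.17 TPM (n = 6) in C57 and from 4.91 ± 1.45 to 12.4 ± 1.89 TPM in Mixed, and the groups did not overlap on either background. Its log2 differences were 0.59 (limma adjusted p = 0.00417) and 1.20 (adjusted p = 1.81e-06), and the interaction of 0.62 did not pass (adjusted p = 0.0742). Col8a2, a chain of short-chain networks, was at 0.93, 0.88, 0.54, 0.37 and 0.30 TPM in C57 WT and from 1.14 TPM through 1.53 to 1.78 TPM in C57 Het. Mixed WT animals had 0.20, 0.35, 0.061, 0.24 and 0.21 TPM and in Mixed Het from 0.47 TPM through 1.02 to 1.49 TPM. The groups did not overlap on either background, at levels near 1 TPM, and the gene passed the filter only through Het animals. The difference was 0.66 in C57 (SE 0.14, limma adjusted p = 0.000909) and 0.70 in Mixed (SE 0.14, adjusted p = 0.000361). Col26a1, which also passed only with the Het animals, differed by 0.37 (C57, adjusted p = 0.0173) and 0.61 (Mixed, adjusted p = 0.000339), with mean levels between 0.46 and 1.31 TPM.

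Col6a6, a longer chain of type VI collagen that can stand in for that of Col6a3, was the collagen gene with the largest decrease on both backgrounds. In C57 WT it was at 83.7, 49.8, 49.6, 65.6 and 35.3 TPM, and in C57 Het it ran from 18.7 TPM through a median of 23.8 to 33.2 TPM. In Mixed WT it was at 32.4, 33.4, 46.0, 32.5 and 32.9 TPM, and in Mixed Het from 7.26 TPM through 8.12 to 9.55 TPM. Every Het animal lay below every WT animal of its background. The C57 difference was -1.16 (SE 0.17, limma adjusted p = 2.29e-05), and the Mixed difference was -1.97 (SE 0.17, adjusted p = 1.06e-08). The interaction was -0.81 (SE 0.24, adjusted p = 0.0406), and it lost its call in 17 of the alternatives. Among these was the required log2 difference of at least 1, which a value of -0.81 cannot meet.

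Col6a5, the gene next to Col6a6, was higher in the Mixed Het animals, and was not tested because 4 samples reached 1 TPM. It was at 0.19, 0.43, 0.11, 0.47 and 0.35 TPM in Mixed WT, and in Mixed Het at 0.57 TPM (lowest), 1.40 TPM (median) and 10.5 TPM (highest, Mixed Het 5). All 6 Mixed Het animals lay above the Mixed WT animals. In C57 it stayed at or under 0.36 TPM in each animal. With no filter on low values the Mixed difference was 1.11 (limma adjusted p = 0.0177).

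Col11a2 and Col20a1 were the other genes lower on both backgrounds. Col11a2, a fibrillar chain of cartilage, was at 20.5, 10.2, 13.4, 18.0 and 16.1 TPM in C57 WT and ran from 7.05 TPM through a median of 8.29 to 10.8 TPM in C57 Het. In Mixed WT it was at 15.6, 18.7, 20.6, 20.8 and 11.2 TPM and in Mixed Het from 9.32 TPM through 10.4 to 16.1 TPM. The groups overlapped on both backgrounds, and Col11a2 fell by 0.78 in C57 (SE 0.17, limma adjusted p = 0.00119) and by 0.54 in Mixed (SE 0.17, adjusted p = 0.0139).

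Col20a1, a FACIT chain, was at 12.5, 7.56, 8.995, 11.6 and 11.1 TPM in C57 WT and from 5.17 TPM through 7.12 to 7.79 TPM in C57 Het, with a small overlap. In Mixed it was at 18.6, 20.5, 22.6, 25.6 and 15.5 TPM in WT and from 8.21 TPM through 12.1 to 15.2 TPM in Het, with none. It fell by 0.55 (SE 0.14, limma adjusted p = 0.00538) in C57 and by 0.74 (SE 0.14, adjusted p = 0.00031) in Mixed. Col13a1, a transmembrane collagen, fell by 0.53 in C57 (adjusted p = 0.0151) without overlap and differed by -0.12 in Mixed (adjusted p = 0.594). Its interaction was 0.42 and did not pass (adjusted p = 0.269).

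Markers of endocrine and exocrine cell types also differed by genotype in the same libraries. Over all genes 26.4% were called higher and 11.6% lower in C57, and 30.7% higher and 13.5% lower in Mixed. Alpha-cell markers rose for 4 of 4 genes and delta-cell markers for 2 of 2 on each background. Beta-cell markers, which include Mafa, fell for 2 of 8 genes in C57 and 5 of 8 in Mixed, and 1 rose in C57. Msln, which encodes mesothelin, fell on both backgrounds, by 2.41 in C57 and 3.22 in Mixed. It was the only tested gene of 4 mesothelial markers and made up nearly all of their summed TPM in every animal but Mixed Het 5. There Msln was 7.82 TPM of a sum of 15.38 TPM, with Upk3b at 5.209 TPM and Lrrn4 at 2.097 TPM. The other 3 were too low to be tested, with group means of at most 1.08 TPM, so the Msln values describe that gene and not the cell type. Acinar markers were called higher in Het for 8 of 8 genes in C57 and 1 of 8 in Mixed, with median log2 differences of 1.225 and 0.886. Their summed level was 210 to 389 TPM in C57 WT and 258 to 1635 TPM in C57 Het. In Mixed it was 172 to 860 TPM in WT and 618 to 1178 TPM in Het. Of 7 ductal markers 6 were tested; 2 rose in C57 (Sox9 by 0.59 and Spp1 by 1.67), and 5 rose and 1 fell in Mixed. The summed ductal level was 158 to 183 TPM in C57 WT and 201 to 314 TPM in C57 Het, and 141 to 214 TPM in Mixed WT and 195 to 570 TPM in Mixed Het. The part of any of these cells in the collagen differences was not tested.

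The major type IV chains of basement membranes held the largest share of collagen TPM, and neither passed the genotype test on either background. Col4a1 and Col4a2 together held 48.7 ± 3.48% (SD, n = 5) of collagen TPM in C57 WT, 47.6 ± 3.001% (n = 6) in C57 Het, 52.9 ± 4.73% (n = 5) in Mixed WT and 43.6 ± 5.84% (n = 6) in Mixed Het. Col1a1, Col1a2 and Col3a1 together held 6.99 ± 1.61%, 9.49 ± 1.71%, 6.18 ± 1.54% and 17.2 ± 5.27% in the same order.

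Col4a1 was at 131, 112, 99.3, 109 and 176 TPM in C57 WT, and ran from 81.4 TPM through a median of 93.2 to 112 TPM in C57 Het. Mixed WT animals had 142, 197, 141, 117 and 136 TPM and in Mixed Het from 92.2 TPM through 172 to 222 TPM. Het minus WT was -0.37 in C57 (SE 0.19, limma adjusted p = 0.127) and 0.13 in Mixed (SE 0.19, adjusted p = 0.613). The C57 value passed under 4 alternatives, among them each of the 3 other scalings (-0.49 with median-of-ratios, adjusted p = 0.0396), and the Mixed value changed sign with that scaling (-0.0068).

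Col4a2 starts 21 bases from Col4a1 on the opposite strand, in the RefSeq GRCm38.p6 annotation. It was at 103, 80.6, 67.4, 75.5 and 131 TPM in C57 WT and from 63.0 TPM through a median of 77.1 to 82.9 TPM in C57 Het. In Mixed WT it was at 99.2, 132, 93.4, 76.1 and 96.9 TPM and in Mixed Het from 75.5 TPM through 133 to 171 TPM. Its differences were -0.23 (limma adjusted p = 0.36) in C57 and 0.32 (adjusted p = 0.183) in Mixed.

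Col15a1, a multiplexin of vascular basement membranes, was at 30.9, 21.4, 19.8, 22.8 and 40.2 TPM in C57 WT and from 20.1 TPM through a median of 21.3 to 23.7 TPM in C57 Het. In Mixed WT it was at 32.9, 46.7, 31.4, 28.4 and 31.7 TPM and in Mixed Het from 27.1 TPM through 45.9 to 86.6 TPM. Its differences were -0.27 (limma adjusted p = 0.335) and 0.44 (adjusted p = 0.0973). Endothelial markers, beside these genes, fell for 6 of 10 in C57, where 11.6% of all genes were called lower. In Mixed 0 of 10 rose or fell, where 44.1% of all genes were called. Het and WT values did not overlap for 0 of the 10 in C57 and 1 in Mixed, against 21.0% and 23.6% of all genes. The summed endothelial level was 390 to 962 TPM in C57 WT, 370 to 453 TPM in C57 Het, 482 to 563 TPM in Mixed WT and 418 to 757 TPM in Mixed Het. The highest C57 WT sum was that of C57 WT 5, and the next was 656 TPM. The part of endothelial cells in these values was not tested.

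Chain ratios within a collagen type do not depend on the scaling of a library. The 4 ratios compared were chosen after the values were seen, and the 8 tests are two-sided exact permutation tests over animals on the log2 ratio, for which 0.00433 is the smallest p possible. The Col1a1 to Col1a2 ratio was 1.07 ± 0.25 (SD, n = 5) in Mixed WT and 1.55 ± 0.15 (n = 6) in Mixed Het, with all 6 Het animals above every WT animal (exact p = 0.00433, adjusted 0.0173). The C57 animals had 1.18 ± 0.20 (WT) and 1.14 ± 0.16 (Het), with an exact p of 0.701. The Col4a1 to Col4a2 ratio was lower in Het on both backgrounds, although neither gene passed alone.

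That ratio was 1.38 ± 0.079 (SD, n = 5) in C57 WT and 1.25 ± 0.063 (n = 6) in C57 Het, with 4 of 6 Het animals below every WT animal (exact p = 0.0216, adjusted 0.0432). The Mixed animals had 1.48 ± 0.056 (WT) and 1.29 ± 0.045 (Het), with 6 of 6 Het below (exact p = 0.00433, adjusted 0.0173). The Col6a3 to Col6a1 ratio was 0.64 ± 0.18 in Mixed WT and 0.29 ± 0.14 in Mixed Het, with 5 of 6 Het animals below every WT animal (exact p = 0.013, adjusted 0.0347), and in C57 it did not pass (exact p = 0.558). The Col6a1 to Col6a2 ratio passed on neither background (exact p = 0.117 in C57 and 0.303 in Mixed). How reads shared between overlapping transcripts were counted is not given in the sources used here.

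**Figure D4:**
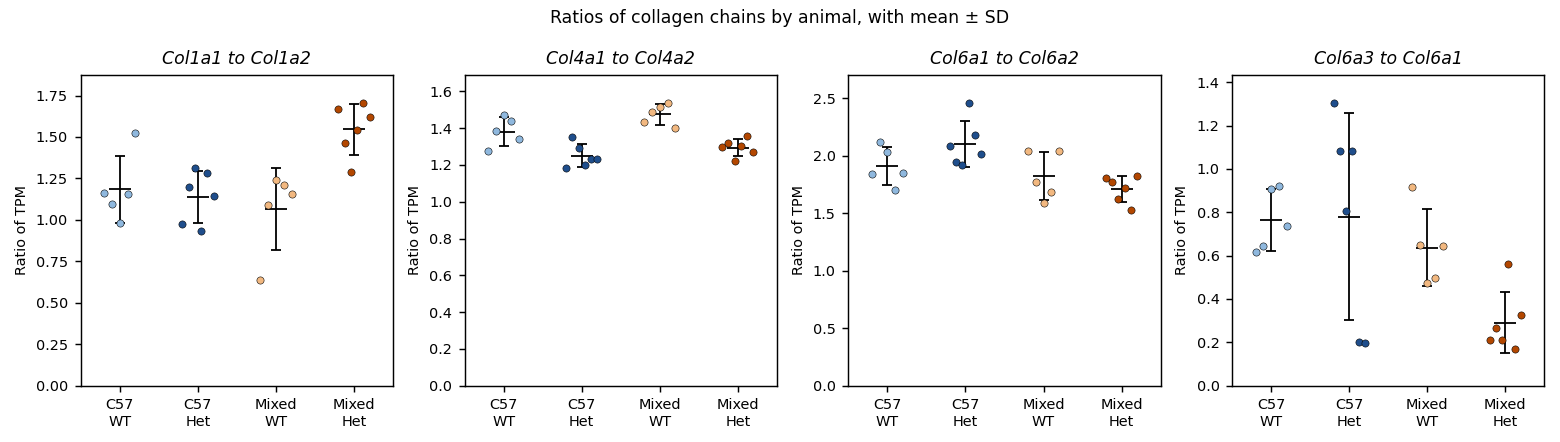
Ratio of TPM (y axis, from 0) between chains of the same collagen type in each animal, with the mean and SD of each group. The Col1a1 to Col1a2 ratio is highest in Mixed Het, the Col4a1 to Col4a2 ratio is lower in both Het groups than in their WT groups, and the C57 Het values of Col6a3 to Col6a1 lie in separate clusters.

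The genes that fold, process and bind collagen were counted from lists of the pathway. Of 19 genes that modify and fold procollagen, 18 were tested, and 13 rose and 0 fell in Mixed Het, while 7 rose and 0 fell in C57 Het. Over all genes 30.7% were called higher in Mixed and 26.4% in C57, and these shares are the background for the counts of each list that follows. The median log2 difference of the 18 was 0.55 in Mixed and 0.12 in C57, beside 0.10 and 0.08 over all genes. P3h2, a prolyl 3-hydroxylase that acts on type IV collagen, rose by 2.03 (limma adjusted p = 1.07e-10) in Mixed and by 1.16 (adjusted p = 3.97e-07) in C57. Its interaction of 0.86 passed (adjusted p = 0.00576). P4ha1, a subunit of the prolyl 4-hydroxylase that stabilises the helix, rose by 0.76 and 0.55, and Plod3, a lysyl hydroxylase, by 0.68 and 0.43.

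Of 12 genes for procollagen cleavage and cross-linking, 6 were tested; 3 rose and 2 fell in Mixed, and 0 rose and 1 fell in C57. Loxl1, a lysyl oxidase that cross-links matrix proteins, rose by 1.40 in Mixed (limma adjusted p = 9.59e-05) and differed by 0.11 in C57. Its interaction was 1.29 (adjusted p = 0.0271). Adamts2, which removes the amino-terminal propeptide, differed by 1.02 in Mixed, and passed the filter only through Mixed Het. Bmp1, which removes the carboxy-terminal propeptide, fell by 0.48 in Mixed (adjusted p = 0.00573) and by 0.81 in C57 (adjusted p = 9.67e-05).

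Among 9 tested of 12 fibril-associated matrix genes, 7 rose in Mixed and 0 in C57, and none fell on either background. Fn1, among the 7, did not reach the filter in the WT animals alone. Dcn rose by 1.51 (limma adjusted p = 0.00485), Lum by 1.48, Postn by 1.43 and Dpt by 1.35 in Mixed, and the interaction passed for 4 of the 9. Of 15 other basement membrane genes, 13 were tested, and 7 rose in Mixed and 2 in C57. Lama5, a laminin chain, rose by 0.99 in Mixed. The laminin chains Lamc3 (1.18) and Lama2 (0.94) were also called higher there, but neither reached the filter in the WT animals alone.

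Of 10 collagen receptor genes, 7 were tested; 3 rose and 0 fell in Mixed, and 1 rose and 1 fell in C57, so the counts do not set the list apart from all genes (30.7% higher in Mixed, 26.4% higher and 11.6% lower in C57). Itgb1, the beta subunit shared by collagen-binding integrins, rose by 0.80 in Mixed (limma adjusted p = 1.10e-06) and 0.59 in C57 (adjusted p = 8.83e-05). Itga2, a collagen-binding alpha subunit, fell by 1.03 in C57 (adjusted p = 5.98e-05) and differed by -0.22 in Mixed, with an interaction of 0.81 (adjusted p = 0.0353). In the TGF-beta list, whose ligands are known inducers of collagen genes, 5 of 12 rose in Mixed, and 3 rose and 1 fell in C57, again near the shares of all genes. Tgfb3 rose by 1.11 in Mixed and 0.48 in C57, and Tgfb2 by 0.96 in Mixed.

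Between backgrounds, WT islets differed in 2 of the 29 collagen genes, 1 higher and 1 lower in Mixed, where 11.3% of all genes were called, 6.30% higher and 4.99% lower. With quantile normalization 1 was higher and 3 lower. Col20a1 was higher in Mixed WT than in C57 WT by 0.93 (SE 0.15, limma adjusted p = 0.00037), with no overlap. For Col6a6 the value was -0.62 (SE 0.17, adjusted p = 0.0239), lower in Mixed, and it lost its call in 8 of 34 alternatives. In Het islets 18 of the 29 genes differed, 17 higher and 1 lower in Mixed, where 20.5% of all genes were called, 13.3% higher and 7.13% lower. The groups did not overlap for 2 collagen genes between WT islets, against 6.12% of all genes, and for 7 between Het islets, against 9.85%. Those between WT islets were Col20a1 and Col26a1. Col26a1, lower in Mixed, was not called (limma adjusted p = 0.162) and passed the filter only with the Het animals. The background contrasts use the same samples as the genotype contrasts and are not independent of them. Col8a1, which passed the filter only through Mixed Het, is among the 17 higher in Mixed Het and the 7 without overlap.

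In Het islets Col1a1 was higher in Mixed by 1.82 (limma adjusted p = 0.00106), Col6a2 by 1.62 (adjusted p = 0.000886), Col15a1 by 1.06 (adjusted p = 0.000801), Col4a1 by 0.73 (adjusted p = 0.00618) and Col4a2 by 0.68 (adjusted p = 0.00981). For Col6a6 the value was -1.43 (adjusted p = 4.53e-06), lower in Mixed. Col20a1 was higher in Mixed than in C57 in both genotypes, by 0.93 in WT and 0.73 in Het. Col6a6 and Col20a1 were called in both genotype contrasts and in both background contrasts, with the Col6a6 call between WT groups the one lost in 8 alternatives.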

How the data were processed

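Islet RNA of 22 mice was measured, 1 library each. The authors deposited TPM for 57010 gene rows, per the file headers, in 22 columns that each sum to 1000000. STAR 2.7.10b, MultiQC 1.7 and the mm39 build are named in the submitters' processing notes; the counting tool and annotation are not given in the sources used here. TPM keeps no depth, so depth per library is unknown. Between 14812 and 16133 genes reached 1 TPM per sample. Column names give an age of 5 to 6 weeks, the series design 5.5 weeks.

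The analysis scale was log2(TPM + 1), on which changes of low genes come out too small. Rows with at least 1 TPM in at least 5 samples were kept (16756). limma 3.58.1 in R 4.3.3 (lmFit, eBayes with trend) fitted 4 group means over all 22 samples, with Benjamini-Hochberg adjustment over all genes and a threshold of 0.05; every p of a single gene is from it. Chain ratios were compared by exact permutation (scipy 1.17.1). For 147 repeated symbols the row of highest mean was looked up. The fit was tested on simulated data. Replicate numbers follow accession order and only name an animal.

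The members and lists were chosen with earlier results of these data known. Values per sample were given for the largest called differences of each contrast (6 Mixed, 4 C57, 4 interaction, 2 in each background contrast) and the 4 genes highest in mean TPM, 13 in all. Alternatives were pseudocount 0.1, no filter, mean TPM of at least 5, 3 other scalings (median-of-ratios, quantile, a total without 13 genes over 1% of a sample), the samples of the contrast alone, eBayes without trend, arrayWeights, a log2 difference of at least 1, and each animal left out. Leaving out Mixed Het 3 and 5, or C57 WT 5 and Mixed Het 5, was added after seeing the data.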

Additional observations from a re-analysis of the deposited data

Results flagged for a closer look

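In 52 groups of values (13 genes in 4 groups), 7 single values lay farther from the rest than Dixon's 95% limit. For normally distributed values chance gives about 1 in 20 groups. The limit was applied to TPM and not to log values, and the 13 genes were measured in the same animals, so the groups are not independent. The 7 values were Col1a1 in C57 WT 5 (19.9 TPM, the highest of its group), Col6a6 in Mixed WT 3 (46.0 TPM, highest), Col6a1 in Mixed Het 5 (79.1 TPM, highest), Col6a2 in Mixed Het 5 (51.8 TPM, highest), Col5a3 in C57 Het 5 (2.88 TPM, highest), Col4a2 in C57 Het 3 (63.0 TPM, lowest) and Col15a1 in Mixed WT 2 (46.7 TPM, highest).

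The genotype difference itself differed between backgrounds, by the limma interaction term, for 12 collagen genes. The interaction was 2.04 for Col1a1, 1.45 for Col1a2, 1.61 for Col3a1, 1.51 for Col5a1, 1.25 for Col5a2, 1.88 for Col5a3, 0.77 for Col8a1, 1.63 for Col6a1, 1.73 for Col6a2, 1.27 for Col16a1, 1.25 for Col18a1 and -0.81 for Col6a6. Col8a1 had passed the filter on low values only through Mixed Het.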

How the results depend on the processing

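Of 2358 gene values under alternatives, 2238 kept direction and side of the threshold, 101 lost the call, 7 gained one and 12 changed sign, none of them a called value. Leaving out 1 animal gave 7 to 10 called collagen genes in C57, 19 to 23 in Mixed, 5 to 13 for the interaction, 1 to 2 between WT groups and 18 to 21 between Het groups; the 5 came without C57 WT 5 or Mixed WT 1. Requiring a log2 difference of at least 1 left 1 in C57 and 0 between WT groups. A mean TPM of at least 5, which tests fewer genes, left 11 in Mixed and 7 for the interaction. No filter left 3 for the interaction and 1 between WT groups, quantile normalization gave 4 there and the contrast's samples alone 1. Without C57 WT 5 and Mixed Het 5 the interaction had 4. The cause of these shifts was not tested.

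Signs that changed were, in C57, Col3a1 (-0.0031, quantile), Col4a2 (0.028) and Col6a2 (0.21, both arrayWeights), Col6a1 (-0.0035, median-of-ratios) and Col6a2 without C57 WT 5 and Mixed Het 5 (0.11). In Mixed they were Col4a1 (-0.0068, median-of-ratios, and -0.038, quantile). With 1 animal left out, C57 values ran from -0.037 to 0.42 for Col1a1 and from -0.13 to 0.11 for Col6a2, and log2 ratios from -0.11 to 0.046 for Col1a1 to Col1a2 and from -0.54 to 0.0027 for Col6a3 to Col6a1. No paired analysis was possible because the labels give no replicate numbers shared between groups. Depth is unknown, so its limits on low genes could not be given.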
